A study of Mus musculus with 2 samples.

Results

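The cells described here come from the mouse salivary gland and carried transcripts of natural killer (NK) cell receptors together with *Gzma* or *Eomes*, and a part of them also held T cell receptor complex transcripts. A cell barcode was taken as one of them when it held at least 3 unique molecular identifiers (UMIs, each a captured transcript) of *Ncr1*, *Klrd1* and *Klrb1c* summed and at least 3 of *Gzma* and *Eomes* summed. It also held no UMI of *Cd4*, *Cd8b1*, *Cd79a* or *Ms4a1* and at most 1 of *C1qa* and *Csf1r* summed. This rule found 366 barcodes among the 10591 that passed the limits of 500 UMIs, 300 genes and 10% mitochondrial UMIs, 259 of 4917 in the NOD/ShiLtJ library and 107 of 5674 in the CD1 library. They were thus chosen by measured UMIs, and are called *Gzma*/*Eomes* NK barcodes below after the genes that they were selected on.

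The study compared salivary glands of female NOD/ShiLtJ mice, an inbred strain that develops a Sjögren-like gland disease and diabetes, with those of age-matched CD1 mice, an outbred stock that served as the control. Mice of both groups were 20 weeks old and untreated. Submandibular and sublingual glands of several mice were pooled (3 mice per group by the sample records, 4 by the study), so each strain gave 1 single-cell library and mice cannot be told apart within it. Epithelial and red blood cells were depleted with antibodies to EpCAM and Ter119. In total 52790319 UMIs were counted for NOD, over 1298073 barcodes, and 56483149 for CD1, over 1331542. Strain, pool and library therefore cannot be told apart, no p-value is given, and all intervals are 95% intervals that cover counting error only.

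NK cells are innate lymphocytes that kill infected, stressed or transformed cells without antigen-specific receptors, using perforin to breach the target membrane and granzymes to start cell death. Their activity is set by the balance between activating receptors such as NKp46 (*Ncr1*) and NKG2D (*Klrk1*) and inhibitory receptors for MHC class I, which in the mouse are chiefly the Ly49 family (*Klra* genes). Conventional NK cells depend on the T-box factor Eomes and circulate, whereas the related type 1 innate lymphoid cells (ILC1) stay in tissue. The salivary gland is known for NK cells that share surface integrins with ILC1.

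The numbers of *Gzma* and *Eomes* UMIs describe what the rule kept and are not a finding. Of the 580 NOD barcodes that met the rule without its *Gzma* and *Eomes* part (the NK lineage), 238 held no UMI of either gene, 55 held 1 and 28 held 2, which lie just outside. Just inside lay 19 barcodes with 3 UMIs, 20 with 4 and 16 with 5. Of the 349 NK-lineage barcodes in CD1, 189, 34 and 19 held 0, 1 and 2 UMIs, and 17, 6 and 9 held 3, 4 and 5. There was no gap at the minimum of 3 in either library. The median sum among the *Gzma*/*Eomes* NK barcodes was 15 UMIs in NOD and 7 in CD1, and the highest was 190 and 180. UMIs of both genes were found in 58.7% of them in NOD and 51.4% in CD1, *Eomes* alone in 26.6% and 38.3%, and *Gzma* alone in 14.7% and 10.3%. The 26 NOD barcodes richest in *Gzma* held 48.1% of its UMIs, and the 11 richest in CD1 held 50.8%.

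*Gzma*/*Eomes* NK barcodes made up 5.27% of the kept NOD barcodes (Clopper-Pearson interval 4.66 to 5.93) against 1.89% for CD1 (1.55 to 2.27), with a log2 ratio of 1.48 (1.15 to 1.82). As a share of the NK lineage NOD had 44.7% (40.6 to 48.8) against 30.7% for CD1 (25.9 to 35.8), which differ by 0.54 on the log2 scale (0.21 to 0.88). Both shares are set by the rule, by the depletion of other cells and by the number of other leukocytes in each pool. Among barcodes with no *Cd3d*, *Cd3e* or *Cd3g* UMI, 76 remained in NOD and 62 in CD1, and the log2 ratio of the shares of kept barcodes was 0.50 (-0.00 to 1.01). As a share of the NK lineage without such UMIs they made up 60.8% in NOD against 29.2% in CD1 (log2 1.06, 0.55 to 1.56). The median depth was 10002 UMIs and 3310 genes in NOD, and 11290 UMIs and 3585 genes in CD1. The median mitochondrial share was 4.28% and 4.41%. No barcode of this set was shared between the libraries, although 6 of all kept barcodes were.

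**Figure D1:**
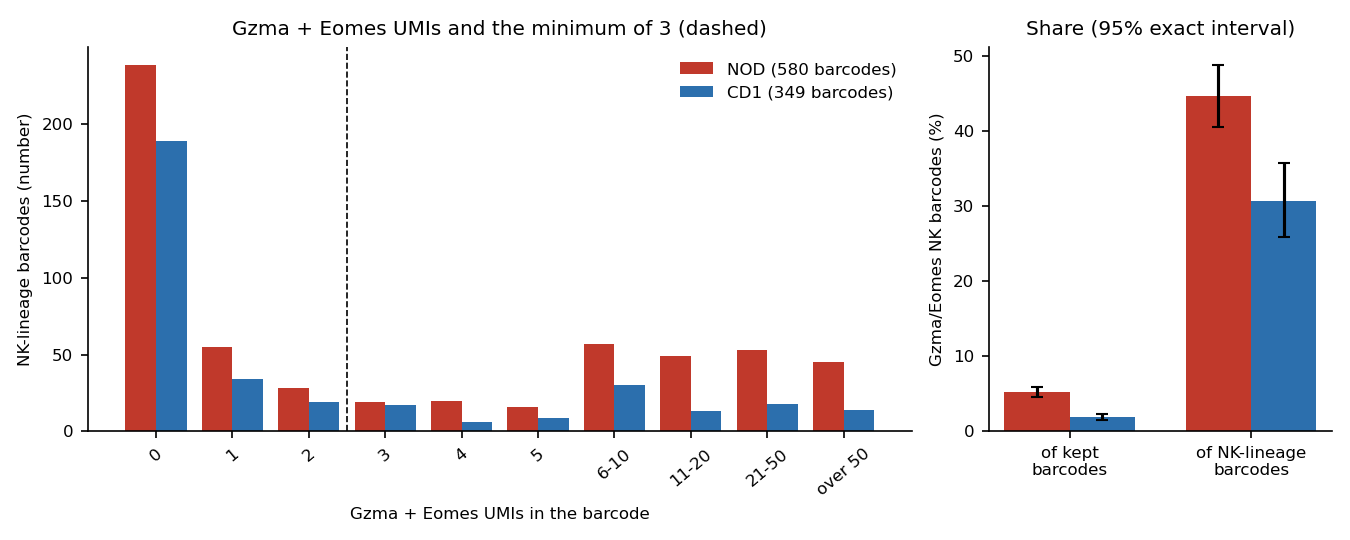
Left, number of NK-lineage barcodes (y axis) by their summed *Gzma* and *Eomes* UMIs (x axis), with the minimum of 3 dashed; right, share of *Gzma*/*Eomes* NK barcodes in percent, with 95% exact intervals. NOD is red and CD1 blue; counts fall without a gap across the minimum, and both shares are higher in NOD.

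The NK cell markers fixed for the check were present in both libraries. Levels are given as CPM, the UMIs of a gene divided by all UMIs of the class and multiplied by 1000000. *Ncr1* was at 1113 CPM in NOD and 1230 in CD1, and *Klrd1*, which pairs with NKG2 receptors, was at 511 and 849. *Klrb1c* (NK1.1) was at 178 and 546, *Gzma* at 2064 and 1125, and *Eomes* at 388 and 328. These 5 genes chose the barcodes. Of the markers the rule did not use, *Klrk1* was at 821 and 756, *Nkg7*, a granule membrane protein, at 1199 and 1107, and *Klre1* at 696 and 543. *Tyrobp*, the DAP12 signalling adaptor, was lower in NOD, at 827 against 1352 (log2 -0.71, -0.79 to -0.62). Both strains were counted against 1 reference genome, so a strain difference in *Klrb1c* and a difference in how its alleles matched cannot be told apart, and the rule without *Klrb1c* kept 259 and 106 barcodes.

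The data went partly against the label of NK cells, and the rule removed no gene of the CD3 complex. A UMI of *Cd3d*, *Cd3e* or *Cd3g*, which encode the CD3 chains, was found in 70.7% of the *Gzma*/*Eomes* NK barcodes in NOD (64.7 to 76.1) and 42.1% in CD1 (32.6 to 52.0). Once every barcode was thinned to 2000 UMIs, these shares were 42.1% and 19.6%. Endothelial barcodes, which should lack CD3, carried a UMI in 9.59% and 0.616% at median depths of 5600.0 and 6923 UMIs. Every CD8 T barcode carried one by definition, since these were chosen for at least 2 *Cd3* UMIs. Most of the barcodes held few copies: 10 or more CD3 UMIs were seen in 50 NOD barcodes (19.3%) and 7 CD1 barcodes (6.54%), against 59.2% and 14.0% of the other NK-lineage barcodes. *Cd3e*, the chain needed for surface assembly, was found in 15.8% and 1.87%, and *Trac*, the T cell receptor alpha constant region, in 10.0% and 1.87%. NK cells are known to transcribe some CD3 chains and the delta constant region *Trdc*, here at 278 CPM in NOD and 136 in CD1.

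Barcodes rich in CD3 held less *Klra4* and *Zeb2* and more *Cxcr6* and *Bcl11b* than those without it, in both libraries. This split was chosen after values were seen, and *Gzma* within it is a gene of the rule. In the 50 NOD and 7 CD1 barcodes with at least 10 CD3 UMIs, *Gzma* was at 1163 and 371 CPM, against 2950 and 1719 in the 76 and 62 barcodes with none. *Klra4* was at 1039 and 533 against 2028 and 1341, and *Zeb2*, a factor of late NK maturation, at 150 and 113 against 399 and 288. *Cxcr6*, a chemokine receptor of tissue-resident lymphocytes, ran the other way, at 347 and 339 against 152 and 137. So did *Bcl11b*, a T cell commitment factor, at 167 and 258 against 56.1 and 46.2.

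Markers of other cell types differed between the libraries. T cell markers went with NOD: the list summed to 995 CPM in NOD and 489 in CD1, with *Cd3g* its most abundant gene (301 and 123) and *Cd4* and *Cd8b1* at 0 by the rule. Of 10 T cell markers tested, 6 were at least 2-fold higher in NOD and none lower, with a median log2 ratio of 1.52, against 4.78% higher and 4.96% lower over all genes. The gamma delta T cell list summed to 355 and 170, with *Trdc* its most abundant gene. The 12 endothelial markers summed to 160 CPM in NOD and 756 in CD1, with *Pecam1* the most abundant in NOD (97.1) and *Flt1* in CD1 (161), and *Cldn5* at 0 in CD1. *Kdr* was found in 2.32% and 10.3% of the barcodes. The macrophage list summed to 19.9 and 77.3, the epithelial list to 16.0 and 50.4, and the B cell list to 92.1 and 132. In empty droplets of NOD and CD1 the endothelial list summed to 1314 and 5196 CPM, and the macrophage list to 1824 and 8828. The T cell list summed there to 2116 in NOD and 166 in CD1, so free T cell transcripts also went with NOD. *Adgre1*, *Krt5*, *Krt14*, *Cpa3* and *S100a8* were at 0 in both libraries, and *Cd79a* and *Ms4a1* were at 0 by the rule. Of the 259 and 107 barcodes, 4 (1.54%) and 6 (5.61%) were among the highest doublet scores. The part of these transcripts in the strain differences was not tested.

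**Figure D2:**
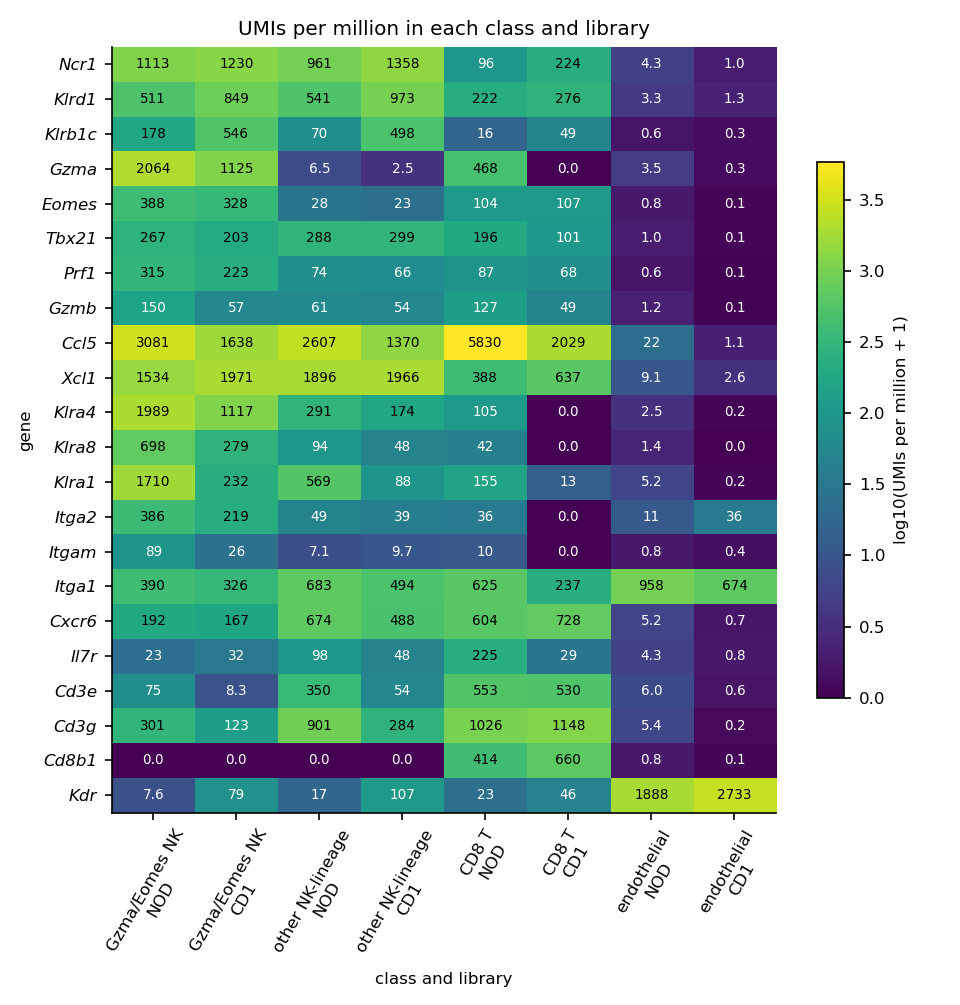
Level of 22 genes (rows) in CPM, printed in each cell and coloured by log10(level + 1), in *Gzma*/*Eomes* NK, other NK-lineage, CD8 T and endothelial barcodes of each library (columns). *Klra4*, *Klra8*, *Itga2* and *Prf1* are highest in the first pair of columns, *Cxcr6* and *Cd3e* are lower there than in the other NK-lineage and CD8 T columns of the same library, and *Kdr* is at 1888 and 2733 in endothelial columns and at most 107 elsewhere.

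Transcripts of the killing machinery were abundant in both libraries and several were higher in NOD. The strain comparison covered 10514 genes with at least 20 UMIs, without the genes of the rule, of which 503 (4.78%) were at least 2-fold higher in NOD and 521 (4.96%) at least 2-fold lower, with a median log2 ratio of -0.00. Without the highest doublet scores these counts were 541 and 350, without endothelial UMIs 530 and 374, and at a minimum of 5 *Gzma* and *Eomes* UMIs 524 and 388. Without barcodes that held a CD3 UMI they were 432 and 326 of 8068 genes. At a minimum of 50 UMIs per gene they were 228 and 218 of 8329. Of the 19 cytotoxic granule and death ligand genes tested, 5 were at least 2-fold higher in NOD and none lower, with a median of 0.11. *Gzmb*, the granzyme that cleaves caspases, was at 150 CPM in NOD against 57.2 for CD1 (log2 1.39, 1.05 to 1.75), and 27.4% and 15.9% of barcodes held a UMI of it. *Gzmk* was at 19.3 against 2.07, the latter from 3 UMIs (log2 3.22, 1.60 to 5.54), and at 182 in the NOD CD8 T barcodes. Without the barcodes that held a CD3 UMI, *Gzmk* had too few UMIs for a ratio. *Serpinb9* and *Serpinb6b*, inhibitors that guard the killer cell against its own granzymes, were at 128 and 104 in NOD and at 49.0 and 37.9 in CD1. *Prf1*, which encodes perforin, differed less, at 315 against 223 (log2 0.50, 0.31 to 0.68), and *Nkg7*, the most abundant gene of this list outside the rule, hardly at all (0.11, 0.03 to 0.20). *Tnfsf10*, the death ligand TRAIL, was lower in NOD, at 150 against 268 (log2 -0.84, -1.04 to -0.64). *Gzmd*, *Gzme*, *Gzmf* and *Gzmg* were at 0 in both libraries. Without the barcodes that held a CD3 UMI, the log2 ratio was 0.92 for *Gzmb* and 0.21 for *Prf1*, and with equal weight for each barcode that of *Gzmb* was 0.84.

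The upstream sequences of *Gzma* and *Prf1* are shown because both genes encode the killing machinery and *Eomes*, a T-box factor, was part of the rule. Each is the 250 bases before the RefSeq gene start on GRCm38.p6, read on the gene's strand: chr13:113100982-113101231 (minus strand) for *Gzma* and chr10:61297586-61297835 (plus strand) for *Prf1*. Capitals mark every match on either strand to the T-box core AGGTGT (reverse complement ACACCT) and to the Runx core TGTGGT (reverse complement ACCACA).
Gzma: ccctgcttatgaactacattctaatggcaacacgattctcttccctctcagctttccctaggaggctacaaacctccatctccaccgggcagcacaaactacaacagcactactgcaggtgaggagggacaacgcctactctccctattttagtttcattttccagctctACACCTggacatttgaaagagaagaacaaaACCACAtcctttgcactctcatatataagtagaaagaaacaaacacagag
Prf1: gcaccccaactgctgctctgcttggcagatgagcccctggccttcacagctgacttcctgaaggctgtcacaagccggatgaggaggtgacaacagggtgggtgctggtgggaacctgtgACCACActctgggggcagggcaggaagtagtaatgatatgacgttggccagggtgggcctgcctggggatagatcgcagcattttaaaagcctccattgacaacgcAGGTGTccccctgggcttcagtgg
Both windows held 1 match to each core, and no matches overlapped. In *Gzma* the T-box match began 80 bases and the Runx match 50 bases before the start, and in *Prf1* they began 24 and 130 bases before it. Of 32851 windows of the same length, 11.8% held the T-box core and 14.0% the Runx core. A match of so few letters describes the sequence and is not a binding site.

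The Ly49 receptors, which read MHC class I on target cells, had the median ratio farthest from 0 among the lists of NK cell function. Of 12 tested, 7 were at least 2-fold higher in NOD and none lower, with a median log2 ratio of 1.32. Over all genes, 4.78% were higher and 4.96% lower by that fold. *Klra4* (Ly49D), an activating receptor, was at 1989 CPM in NOD against 1117 for CD1 (log2 0.83, 0.75 to 0.91). Across single barcodes its median was 2111 and 965 CPM, and the highest 10011 and 6116. *Klra8* (Ly49H), the activating receptor known for binding a cytomegalovirus protein, was at 698 against 279 (log2 1.32, 1.17 to 1.48). *Klra1* (Ly49A), an inhibitory receptor, was at 1710 against 232 (log2 2.88, 2.72 to 3.05). *Klra9* was at 350 against 139 and *Klra3* (Ly49C) at 95.4 against 64.1. *Klra7* (Ly49G), another inhibitory receptor, was close to level, at 553 against 621 (log2 -0.17, -0.28 to -0.05), and *Klra17* was lower in NOD, at 15.3 against 26.2. The largest ratio belonged to the pseudogene *Klra13-ps*, at 1980 against 61.4 (log2 5.01, 4.71 to 5.33), followed by *Klra14-ps* at 173 against 6.90.

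A *Gzma*/*Eomes* NK barcode held UMIs of a median of 8 of 13 Ly49 genes in NOD and 5 in CD1, or 5 and 3 after thinning to 2000 UMIs. Only 5 NOD and 6 CD1 barcodes held none. *Klra4* was found in 91.5% and 86.0% of them, against 1.60% and 0.132% of endothelial barcodes at the depths given above. *Klra4* and *Klra8* occurred together in 78.0% of barcodes in NOD and 51.4% in CD1, *Klra4* alone in 13.5% and 34.6%, and *Klra8* alone in 1.93% and 0.935%. *Klra1* and *Klra7* occurred together in 81.5% and 57.9%. Mouse strains differ in the number and sequence of Ly49 genes, and reads of both strains were assigned to 1 reference. A strain difference in Ly49 level and a difference in how alleles matched that reference cannot be told apart here. In the GENCODE M21 transcripts, 14.5% of 90-base windows of the longest *Klra8* transcript occur unchanged in *Klra14-ps* and 4.34% of those of *Klra13-ps* in *Klra7*, so that reads of these genes may have been split between them. None of the windows of *Klra1*, *Klra4*, *Klra5* or *Klra6* occurs in another *Klra* gene.

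The regions before *Klra4* and *Klra8* are shown because these activating receptors marked the barcodes and were detected together. They are the 250 bases upstream of the RefSeq starts on GRCm38.p6, at chr6:130067272-130067521 and chr6:130129899-130130148, both on the minus strand, and *Klra8* has 2 listed starts of which the farther upstream was used. Capitals mark bases that differ or have no partner in a global alignment.
Klra4: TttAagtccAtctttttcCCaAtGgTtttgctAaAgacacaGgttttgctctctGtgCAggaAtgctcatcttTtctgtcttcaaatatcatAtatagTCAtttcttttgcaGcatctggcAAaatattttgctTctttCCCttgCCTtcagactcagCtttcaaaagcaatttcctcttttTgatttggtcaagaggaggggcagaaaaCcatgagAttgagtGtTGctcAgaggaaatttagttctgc
Klra8: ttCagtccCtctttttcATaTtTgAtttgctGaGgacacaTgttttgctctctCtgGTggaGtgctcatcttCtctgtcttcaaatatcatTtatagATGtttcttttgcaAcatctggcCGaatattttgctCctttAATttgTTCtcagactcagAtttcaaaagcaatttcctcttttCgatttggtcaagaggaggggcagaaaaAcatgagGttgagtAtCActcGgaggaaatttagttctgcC
Of 249 aligned bases, 212 (85.1%) were identical, and the differences were spread along the window.

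Of 30 receptors and adaptors outside the Ly49 family, 2 were at least 2-fold higher in NOD and 2 lower, with a median log2 ratio of 0.13, which is near the background of 4.78% and 4.96%. *Slamf6*, a homophilic receptor of lymphocytes, was at 74.1 CPM in NOD against 13.8 for CD1 (log2 2.43, 1.76 to 3.17), and *Klrg1*, an inhibitory receptor of mature NK cells, at 54.9 against 17.9 (log2 1.61, 1.01 to 2.27). *Klrc1*, which encodes the inhibitory NKG2A, was lower in NOD, at 58.5 against 150 (log2 -1.35, -1.65 to -1.06). It was found in 15.8% of NOD and 41.1% of CD1 barcodes. *Fcer1g*, a signalling adaptor, was at 809 against 1168 (log2 -0.53), and *Klrk1* was near level (log2 0.12, 0.02 to 0.22). *Klrb1b* and *Klrb1f*, relatives of *Klrb1c*, were modestly lower in NOD (log2 -0.39 and -0.45).

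*Csf1*, *Ccl3* and *Ccl4* were at least 2-fold higher in NOD, and *Lta*, a lymphotoxin, lower. Of 13 genes for cytokines and chemokines that NK cells make, 3 were at least 2-fold higher and 1 lower, against 4.78% and 4.96% over all genes, with a median of 0.05. *Ccl5*, a chemokine stored by cytotoxic lymphocytes, was at 3081 CPM in NOD against 1638 for CD1 (log2 0.91, 0.85 to 0.98). *Ccl3* was at 179 against 74.5 (log2 1.27, 0.97 to 1.58) and *Ccl4* at 469 against 232 (log2 1.02, 0.84 to 1.19), and both attract other leukocytes. With equal weight for each barcode, *Ccl3* and *Ccl4* fell under 2-fold (log2 0.92 and 0.88). The median over barcodes was 57.4 CPM in NOD and 0 in CD1 for *Ccl4*, and 0 in both for *Ccl3*, with highest values of 24751 and 3933 for *Ccl4* and 9381 and 2113 for *Ccl3*. *Ifng*, the macrophage-activating cytokine, was at 99.4 against 53.8 (log2 0.89, 0.52 to 1.26), but 34.4% of NOD and 34.6% of CD1 barcodes held a UMI of it. *Xcl1*, which attracts cross-presenting dendritic cells, was at 1534 against 1971 (log2 -0.36, -0.43 to -0.29). *Lta* was at 4.32 against 17.2 (log2 interval -3.09 to -0.97, from 13 and 25 UMIs), *Csf1* had 33 and 4 UMIs (log2 1.99, 0.50 to 3.95), and *Ltb*, the other lymphotoxin chain, was at 506 against 803 (log2 -0.67). The level of *Flt3l*, a dendritic cell growth factor, was 40.6 against 77.3 (log2 -0.93, -1.31 to -0.55). *Tnf* was at 55.5 against 67.6, with an interval that spans 0 (log2 -0.28, -0.65 to 0.09). None of the 25 cytokine receptor and signalling genes passed 2-fold in either direction, *Il2rb* being at 824 against 704.

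Most maturation genes had a ratio above 0, and most genes of tissue residence a ratio of 0 or below. Of 13 maturation and circulation genes, 12 had a ratio above 0, with a median of 0.65. At least 2-fold higher were 4 of them, against 4.78% over all genes. *Itgam*, the CD11b integrin of mature NK cells, was at 89.1 against 25.5 (log2 1.80, 1.30 to 2.34), and *Itga2* (CD49b), the usual marker of conventional NK cells, at 386 against 219 (log2 0.82, 0.64 to 1.00). Without the barcodes that held a CD3 UMI, the log2 ratio of *Itgam* was 2.03. *Ly6c2* was the exception, at 1.66 against 44.8 (log2 -4.75, -6.42 to -3.46). Of 17 ILC1 and residence genes, 12 had a ratio of 0 or below, with a median of -0.47 against -0.00 over all genes, and 2 were at least 2-fold lower, against 4.96% over all genes, too few to read as a result about these genes. *Inpp4b*, a lipid phosphatase, was at 1709 against 2857 (log2 -0.74, -0.80 to -0.68), and *Tmem176a* at 31.3 against 72.4 (log2 -1.21, -1.63 to -0.80). Without the barcodes that held a CD3 UMI, the median of the residence list was -0.14, and the log2 ratio of *Tmem176a* was -0.14. *Itga1* (CD49a) did not follow, at 390 against 326, and neither did *Cxcr6*, at 192 against 167. UMIs of both *Itga1* and *Itga2* were found in 47.1% of the barcodes in NOD and 48.6% in CD1.

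None of 19 transcription factors of NK cells and ILC1 passed 2-fold, with a median of 0.26. *Tbx21* (T-bet) was at 267 CPM in NOD against 203 for CD1 (log2 0.40, 0.20 to 0.59), *Tox*, the most abundant by UMIs, at 1218 against 1010, and *Gata3* at 90.1 against 133. *Zfp683* (Hobit), the residence factor of liver ILC1, was at 0 in both libraries. Of 16 migration and adhesion genes 1 passed 2-fold, *Ccr7*, from 24 and 3 UMIs, against 4.78% higher and 4.96% lower over all genes. *Cxcr3*, the receptor for interferon-induced chemokines, was at 72.8 against 41.4 (log2 0.82, 0.40 to 1.25), and *Ccr2* was level (log2 -0.00).

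The direction of the interferon-stimulated genes as a list depended on the barcodes used. Of 28 type I interferon response genes, 24 had a ratio above 0, with a median of 0.50. At least 2-fold higher were 5 and lower 1, against 4.78% higher and 4.96% lower over all genes. *Mndal*, a DNA-sensing family member, was at 351 CPM in NOD against 97.3 for CD1 (log2 1.85, 1.60 to 2.12). *Ifi27l2a* was at 59.8 against 4.14 (log2 3.85, 2.70 to 5.32), from 46 NOD barcodes (17.8%) and 2 CD1 barcodes (1.87%), and gave no ratio without the barcodes that held a CD3 UMI or an endothelial UMI, since CD1 then held none. *Ifi204* was lower in NOD, at 11.6 against 30.3 (log2 -1.38, -2.07 to -0.71). *Mndal*, *Ifi204* and their relatives belong to a family of similar genes that differs between strains, and a difference in level and in how alleles matched the reference cannot be told apart. The list median was -0.18 without those that held a CD3 UMI, 0.13 when each barcode had equal weight, and 0.89 without those that held an endothelial UMI. Of 15 interferon-gamma response GTPases and related genes none was 2-fold higher and 1, *Iigp1*, was lower (7.65 against 19.3), and its sign changed when high doublet scores were removed (log2 1.42). Among 19 MHC class I genes the median was -0.04. *Nlrc5*, the class I transactivator, was at 217 against 108 (log2 1.00, 0.75 to 1.26, on the edge of 2-fold), *H2-K1* was level (log2 -0.05, -0.12 to 0.03), and *H2-T22* and *H2-T23* were lower in NOD (log2 -2.32 and -1.44). The H2 genes differ in sequence between strains, so their ratios carry the same limit as the Ly49 genes.

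Dividing cells were few. Barcodes with UMIs of at least 5 of 20 cell division genes numbered 5 in NOD (1.93%, 0.630 to 4.45) and 6 in CD1 (5.61%, 2.09 to 11.8). Of 17 division genes tested, 6 were at least 2-fold lower in NOD and none higher, against 4.96% and 4.78% over all genes. The list median was -0.84, but each of these 6 was found in at most 7 barcodes of a library. *Ube2c*, at 9.31 against 39.3 CPM, was found in 3 barcodes of each library. *Mki67*, the proliferation marker, was level (log2 -0.03). Among 18 immediate early and heat shock genes, which respond to dissociation, 4 were at least 2-fold higher in NOD and none lower. The median of this list was 0.60, and 4.78% of all genes were higher and 4.96% lower by that fold. *Hsph1* was at 71.5 against 23.5 (log2 1.61, 1.08 to 2.17) and *Fos* at 130 against 67.6 (log2 0.94, 0.62 to 1.28), whereas *Jund* was at 432 against 572 (log2 -0.41). The part of dissociation in the other strain differences was not tested.

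**Figure D3:**
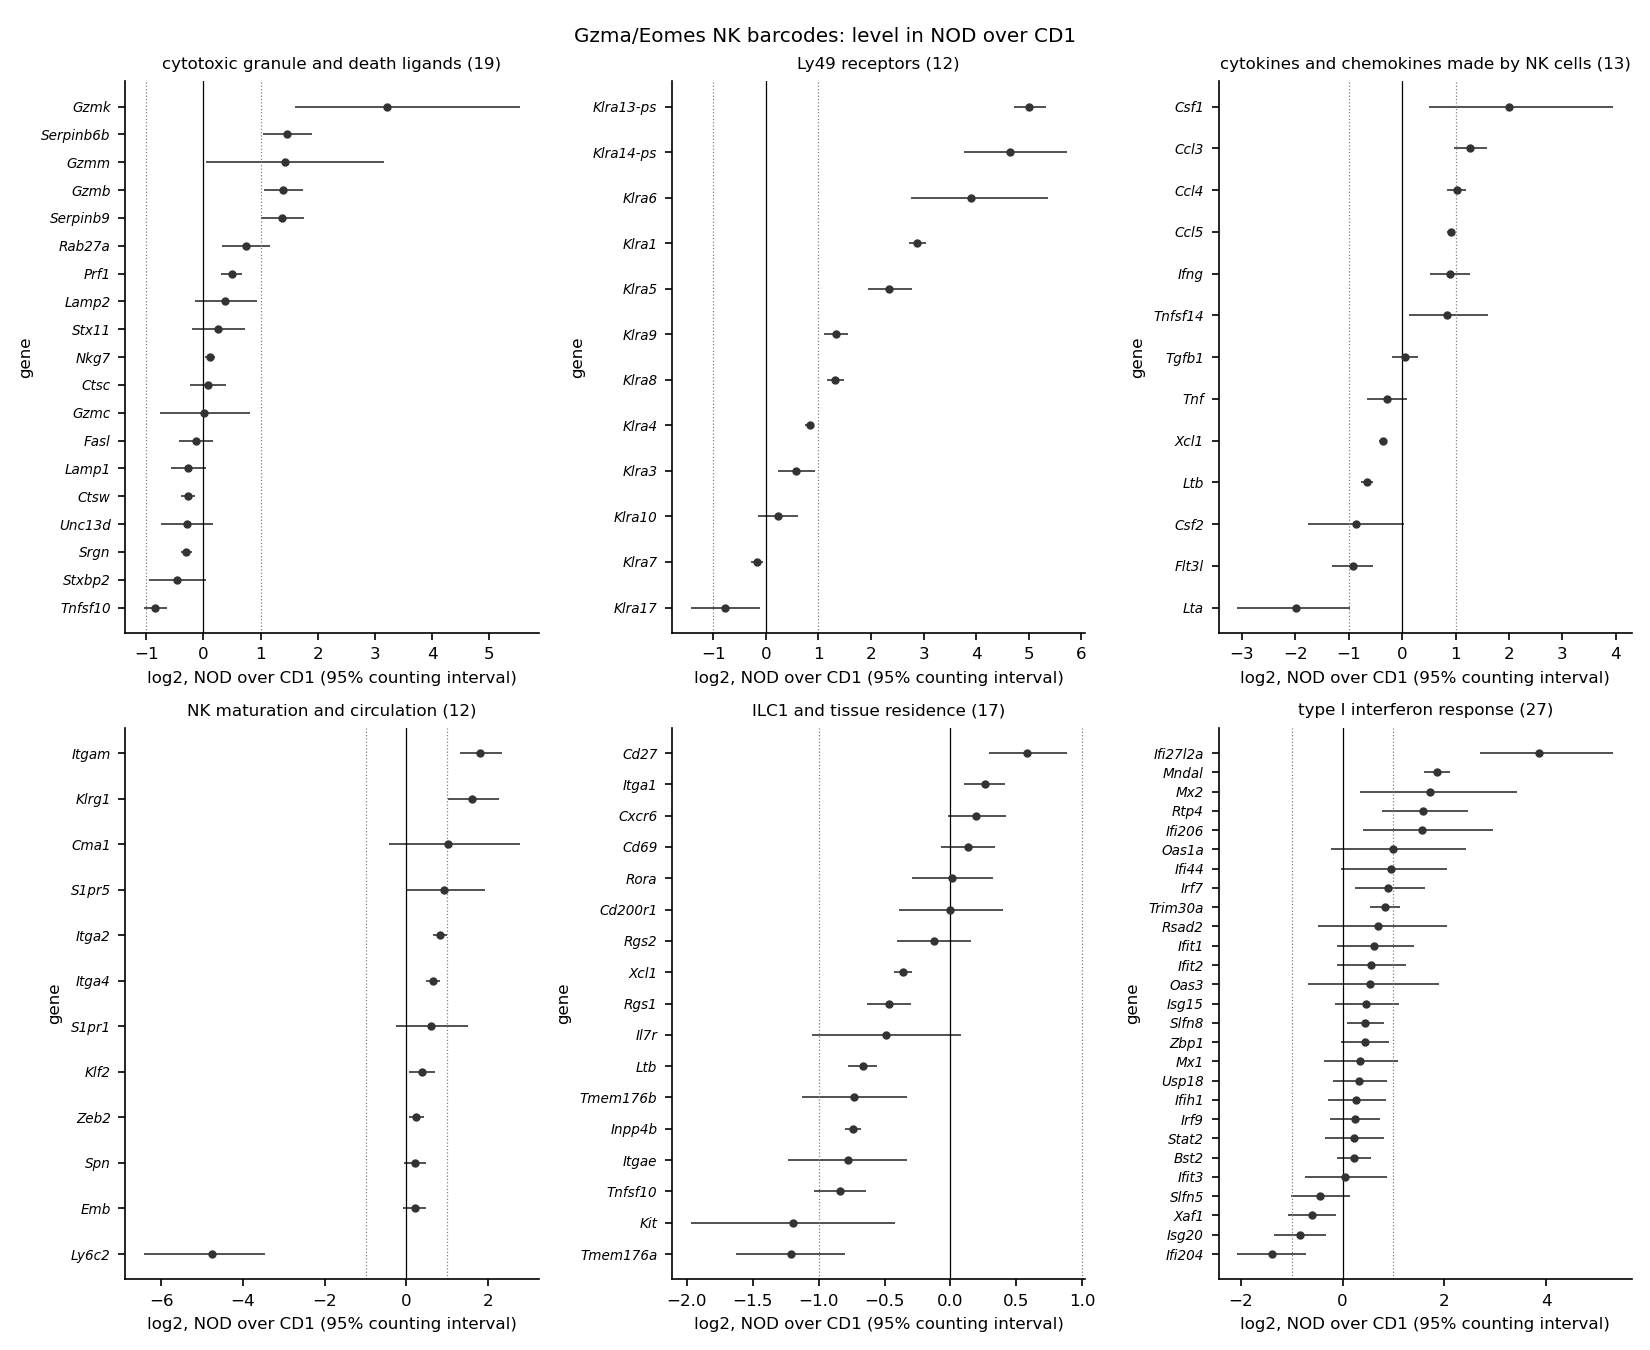
Log2 ratio of the level in NOD over CD1 (x axis, 95% counting intervals) for tested genes of 6 lists (y axis), with dotted lines at 2-fold either way. Ly49 receptors reach 5.01 for *Klra13-ps*, the maturation genes shown lie above 0 except *Ly6c2*, and residence genes lie mostly below 0.

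Ranked over all genes by the interval bound nearest 0, the largest strain differences were mostly genes found in 1 library and absent or nearly absent in the other. BC018473 had 470 UMIs in NOD, spread over 147 barcodes, and 0 in CD1, where a floor of 3 counts makes it at least 75.5-fold higher in NOD. The bound of its two-sided interval, by which genes were ranked, was lower, at log2 5.93. *Slc24a2*, an ion exchanger, was at least 28.9-fold higher by the same floor (180 against 0 UMIs, interval bound log2 4.54), but in only 29 barcodes. *Trim30d* and *Trim5*, members of an antiviral family, were at least 19.8-fold and 13.3-fold higher by that floor (interval bounds log2 3.98 and 3.41). *Gvin3*, a large interferon-inducible GTPase gene, was at 651 CPM in NOD against 24.8 for CD1 (log2 4.71, 4.24 to 5.23). *St6galnac2*, E330020D12Rik and *Ifngas1*, a non-coding RNA next to *Ifng*, were at 105, 102 and 87.1 in NOD and at 2.76, 2.76 and 2.07 in CD1. The other 2 were *Klra13-ps* and *Klra14-ps*. Each of these genes was also higher in NOD in the other NK-lineage barcodes, so the differences were not particular to the *Gzma*/*Eomes* NK barcodes. *Gvin3* was at 550 CPM there in NOD and 20.5 in CD1, and BC018473 at 79.9 and 1.08.

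In the opposite direction, *Mmp16*, a membrane-bound matrix metalloproteinase, had 628 UMIs over 71 CD1 barcodes (66.4%) and 0 in NOD, at least 434-fold higher in CD1 by the floor (interval bound log2 -8.46). *Ifi202b*, a member of the interferon-inducible p200 family, was at 344 CPM in CD1 and 2.66 in NOD (log2 -7.02, -8.24 to -6.03) and was found in 85.0% and 0.772% of barcodes. It belongs to the same family as *Mndal* and carries the same limit. *Fam184b*, *Agbl4* and *Elavl4* had 62, 211 and 36 UMIs in CD1 and 1, 13 and 0 in NOD. Several of the lowest rested on few barcodes or on genes of other cells. *Car10* had 39 UMIs in CD1 from 2 barcodes, and *Plcb1* had 217 from 9. *Plcb1* and *Plpp1* were at 3572 and 2276 CPM in CD1 endothelial barcodes, and *Gng11* at 471, against 150, 107 and 15.9 in the *Gzma*/*Eomes* NK barcodes. Gm10320 had 24 UMIs in 22 CD1 barcodes and 0 in NOD. In the other NK-lineage barcodes these genes were also lower in NOD, except *Car10* (5.88 CPM in NOD and 0 in CD1). *Mmp16* was at 0 there in NOD and 628 in CD1, and *Ifi202b* at 7.12 and 317.

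The other NK-lineage barcodes, which held at most 2 UMIs of *Gzma* and *Eomes*, numbered 321 in NOD and 242 in CD1. They differ from the *Gzma*/*Eomes* NK barcodes by the rule itself, so the values below are a description. In NOD 84.7% of the other NK-lineage barcodes held a CD3 UMI, with a median of 15 CD3 UMIs against 17 in CD8 T barcodes, while in CD1 38.0% did, with a median of 0. Of 10192 genes tested in both libraries, 100 (0.981%) were at least 2-fold higher in the *Gzma*/*Eomes* NK barcodes in both and 135 (1.32%) at least 2-fold lower in both. Of 11 Ly49 genes, 8 were higher in both and 1 lower. *Klra4* was at 1989 CPM against 291 in NOD and at 1117 against 174 in CD1 (log2 2.77 and 2.68), and *Klra8* at 698 against 94.4 and 279 against 47.8 (log2 2.89 and 2.55). *Klra5* ran the other way, at 186 against 515 and 36.6 against 134. Of 12 maturation genes 6 were higher in both and 2 lower. *Itga2* was at 386 against 48.9 in NOD and 219 against 38.8 in CD1, and *Zeb2* at 267 against 87.9 and 226 against 52.4. *Prf1* was at 315 against 74.0 and 223 against 65.7 (log2 2.09 and 1.77).

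Some genes of residence and of T cells were lower than in the other NK-lineage barcodes. Of 17 ILC1 and residence genes, 4 were at least 2-fold lower in both libraries and none higher. Of 11 T cell markers, 5 were lower and none higher, against 1.32% lower and 0.981% higher over all genes tested. *Cd200r1*, an inhibitory receptor of ILC1, was at 55.9 against 215 CPM in NOD and 55.9 against 223 in CD1. *Cxcr6* was at 192 against 674 and 167 against 488, and was found in 33.6% of *Gzma*/*Eomes* NK against 89.4% of the other barcodes in NOD and in 37.4% against 90.1% in CD1. *Gzmc*, a granzyme, was at 15.3 against 67.2 and 15.2 against 113, while *Gzmb* was higher in NOD, at 150 against 60.7, and level in CD1 (log2 0.08). *Cd3e* was at 75.1 against 350 and 8.28 against 53.9 (log2 -2.22 and -2.70), and *Trgv2*, a gamma variable segment, at 25.6 against 105 and 0.690 against 11.1. *St6galnac3*, *Adam19*, *Cd200r4*, *Trac*, Gm32721 and *Ccdc80* were the rest of the 10 lowest. *Ccdc80* was at 6.98 against 84.5 and 25.5 against 93.0. Fibroblast and mural markers summed to 9.64 CPM against 417 in the other NK-lineage barcodes in NOD, and to 8.97 against 14.0 in CD1. The part of such transcripts in these ratios was not tested.

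Besides *Klra4*, *Klra8*, *Itga2*, *Klra3* and *Klra9*, the 10 highest genes were *Phactr3*, *Ube2c*, *Myb*, *Ror1* and *Dgkh*. *Dgkh*, a diacylglycerol kinase, was at 141 against 34.0 CPM in NOD and 155 against 33.4 in CD1, in 53.3% and 63.6% of barcodes. It was higher still in endothelial barcodes, at 261.5 in NOD and 261.7 in CD1. *Myb*, a progenitor transcription factor, was at 38.9 against 4.33 and 13.1 against 0.718. *Phactr3*, a phosphatase and actin regulator, was at 22.3 against 1.86 and 22.8 against 1.08, and *Ror1*, a receptor tyrosine kinase, at 42.6 against 7.43 and 36.6 against 3.59. Few barcodes held them: *Phactr3* was found in 14.7% in NOD and 15.0% in CD1, and *Ror1* in 10.0% and 6.54%. Of 15 division genes, 9 were at least 2-fold higher in both libraries and none lower, on 5 and 6 dividing barcodes against 3 and 2. Over all genes tested, 0.981% were higher and 1.32% lower in both.

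**Figure D4:**
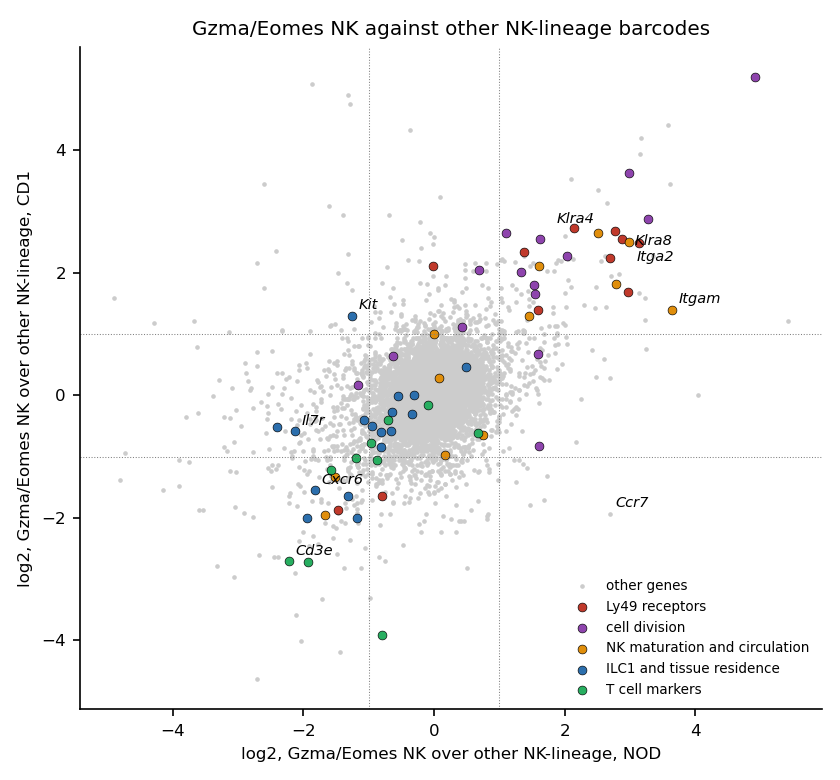
Log2 ratio of *Gzma*/*Eomes* NK over other NK-lineage barcodes in NOD (x axis) and CD1 (y axis); each point is a gene, coloured by list, with dotted lines at 2-fold. Most Ly49, maturation and division genes lie at the upper right, T cell and several residence genes at the lower left, and *Kit* and *Ccr7* in opposite corners.

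Within the *Gzma*/*Eomes* NK barcodes, those with *Gzma* carried more transcripts of mature killer cells than those kept for *Eomes* alone. This split was also chosen after values were seen and uses a gene of the rule. It set 169 NOD and 55 CD1 barcodes with at least 3 *Gzma* UMIs against 69 and 41 with none, at median depths of 9622 and 10981 against 12667 and 11694 UMIs. *Prf1* was at 413 against 115 CPM in NOD (log2 1.84, 1.54 to 2.15) and 362 against 90.9 in CD1 (log2 1.99, 1.57 to 2.44). *Ccl5* was at 3855 against 1428 and 2515 against 930, with the same log2 ratio of 1.43 in both. *Gzmb* was at 216 against 6.60 in NOD and 99.4 against 26.0 in CD1. *Itgam* was at 129 against 20.9 and 46.0 against 6.49, and *Klrg1* at 80.7 against 5.50 and 29.7 against 4.87. *Zeb2* was higher in the barcodes with *Gzma* (log2 1.02 and 0.88), and *Tcf7*, a factor of immature NK cells, lower (log2 -1.54 and -0.97). *Klra4* differed little (log2 0.19 and 0.21).

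*Klra5*, *Inpp4b*, *Klra8* and *Trdc* were among the genes on opposite sides of 0 in the 2 libraries, with intervals that did not span it. *Klra5* was at 221 against 91.2 CPM in NOD and 11.9 against 73.0 in CD1, and *Inpp4b* at 1996 against 1308 and 2325 against 3459. *Klra8* was at 736 against 580 in NOD (log2 0.34, 0.20 to 0.49) and 240 against 302 in CD1 (log2 -0.33, -0.64 to -0.02). For *Trdc* the log2 ratio was -0.33 (-0.54 to -0.12) in NOD and 0.69 (0.24 to 1.16) in CD1. *Itga1* was at 484 against 235 in NOD and 312 against 354 in CD1, and *Cxcr6* at 240 against 109 and 153 against 195, but the CD1 intervals of these genes spanned 0. The 3 T cell receptor complex genes *Cd3d*, *Cd3e* and *Cd3g* were all lower in the NOD barcodes with *Gzma*, *Cd3d* at 107 against 286, while in CD1 their intervals spanned 0. The differences between the libraries in these splits were not tested.

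**Figure D5:**
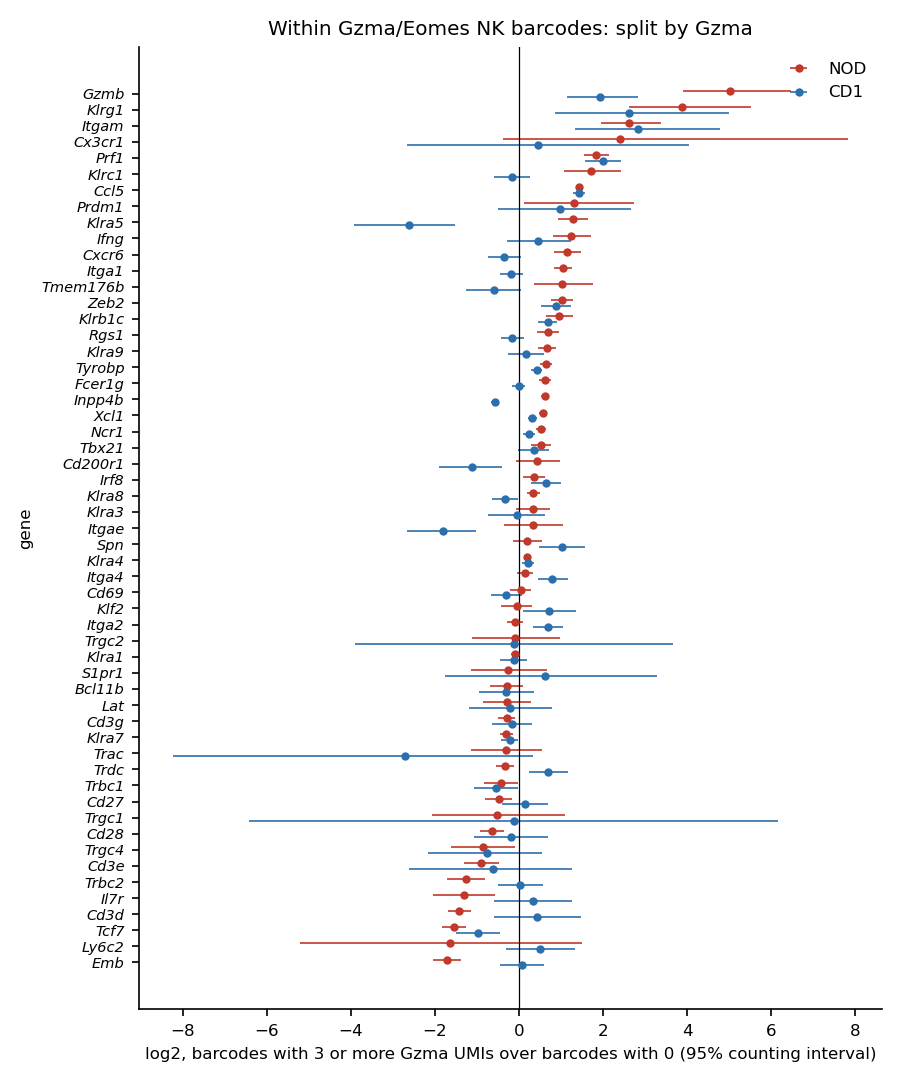
Log2 ratio of the level in barcodes with at least 3 *Gzma* UMIs over those with none (x axis, 95% counting intervals) for genes measured in both libraries (y axis), NOD in red and CD1 in blue. *Gzmb*, *Klrg1*, *Itgam*, *Prf1* and *Ccl5* lie above 0 in both, *Tcf7* below 0 in both, and *Klra5* on opposite sides.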

How the data were processed

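The authors deposited raw UMI counts per gene and barcode for both libraries, unfiltered. The submitters' processing notes name Cell Ranger 8.0.0, Seurat 5.0.1, R 4.3.1 and GRCm39. Labels and paper differ on the mice pooled and on the dissociation enzymes. Barcodes were filtered and chosen as stated, with no alignment between libraries. UMIs were summed over the barcodes of a class and scaled to CPM with Poisson intervals, and ratios have conditional binomial intervals (Python 3.11.15, numpy 2.4.6, scipy 1.17.1). CD8 T barcodes held *Cd8b1*, at least 2 *Cd3* UMIs and no *Cd4*, and endothelial barcodes at least 5 UMIs of *Kdr*, *Pecam1* and *Cdh5* and none of *Ptprc*. Empty droplets held 10 to 100 UMIs. Doublets were scored with Scrublet (scanpy 1.11.5) and kept, and removed in an alternative. Calculations were tested on simulated data. The barcodes, lists and rules were chosen with earlier results of these data known. Named genes were those of the rule, the lists' most abundant and most different genes, and the 10 highest and 10 lowest by the bound nearest 0, and other list genes were picked after their values were seen. With 1 library per strain there is no test. Other settings are given in the closing section. Promoters are from RefSeq (GRCm38.p6), and no coordinates were converted. Some genes of the lists are counted but not reported by name here.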

Additional observations from a re-analysis of the deposited data

Results flagged for a closer look

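*Ccr7* and *Kit* went opposite ways in the 2 libraries when *Gzma*/*Eomes* NK barcodes were set against other NK-lineage barcodes, each by at least 2-fold. *Ccr7*, a lymph node homing receptor, had a log2 ratio of 2.69 in NOD and -1.93 in CD1, from 24 and 3 UMIs in the *Gzma*/*Eomes* NK barcodes. *Kit*, a growth factor receptor of innate lymphoid progenitors, had -1.25 in NOD and 1.30 in CD1, from 29 and 32 UMIs. At a minimum of 5 *Gzma* and *Eomes* UMIs the CD1 value of *Kit* was -0.46, so that the opposite directions no longer held. The difference between the libraries was not tested.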

How the results depend on the processing

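The shares, the CD3 shares, the counts past 2-fold, the medians of 6 lists and single genes were recomputed under those of 12 planned settings that apply and 1 chosen after seeing the data, which drops barcodes with a UMI of 7 endothelial genes. The other lists, the splits and the Ly49 genes per barcode were not. The planned settings included minimums of 1000 UMIs and 500 genes, a 5% mitochondrial limit and a rule without *Klrb1c*. They also included scaling by the median of ratios, subtraction of free RNA, and thinning to 2000 UMIs with minimums of 1. Of 140 values for shares, counts and medians, 128 stayed within the interval or 1.5 times. Without barcodes that held a CD3 UMI, the log2 ratio of shares was 0.50 of kept and 1.06 of NK-lineage barcodes, genes at least 2-fold lower in NOD were 326 of 8068 tested, and the type I interferon median reversed to -0.18. That median was 0.13 with equal barcode weight and 0.89 without endothelial UMIs. A minimum of 50 UMIs per gene left 228 higher and 218 lower in NOD, and 50 higher and 71 lower against other NK-lineage barcodes; fewer genes were tested. Thinning gave CD3 shares of 42.1% and 19.6%. Of 8866 values for single genes, 8318 moved by under 0.5 and 12 reversed. For NOD over CD1 these were *Iigp1* (1.42 without doublet scores, 1.06 at a minimum of 5 *Gzma* and *Eomes* UMIs, 0.013 with equal weight), *Cma1* (-0.069 with equal weight), and, without CD3 barcodes, *Birc5* (0.27), *Kit* (0.024) and *Prol1* (0.0015). Against other NK-lineage barcodes they were *Prol1* in NOD (-0.051) and *Kit* in CD1 (-0.46) at the minimum of 5, *Flt1* (4.62) and *Kdr* (1.62) in NOD without CD3 barcodes, and *Nusap1* in NOD (-0.040) without endothelial UMIs. The cause was not tested. No paired analysis was possible because each strain has 1 library. Depth limits genes under 20 UMIs, where a count of 0 allows 0.997 CPM in NOD and 2.07 in CD1. CD1 splits rest on as few as 7 barcodes.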
